A study of Sus scrofa with 19 samples.

Results

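The genes described here code for the Toll-like receptors, the NOD-like receptors, the adaptors and kinases below them, the NF-kB subunits with their inhibitor, and a few TNF-induced proteins and MAP kinases. They were picked by gene symbol (for example TLR with a number, NOD1, MYD88, IRAK, TRAF, NFKB, RELA, IKBK, TNFAIP and MAPK), without use of their measured values. A probe had to be well above background on at least 4 arrays, and each gene was read from its brightest probe. This gave 33 genes of the 3010 genes with a symbol, read by 49 probes in all, and 11 of the 33 had more than 1 probe. By role they are 14 receptors and receptor co-factors, 5 adaptors and receptor-proximal kinases, 1 TRAF adaptor, 3 subunits of the IkB kinase, 3 NF-kB or IkB proteins, 2 TNF-induced proteins, 2 MAP3 kinases and 3 MAP kinases. IRAK1 and TNFAIP3, central to the pathway, were not measured here.

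Toll-like receptors sense microbial molecules and some host molecules released by stressed tissue. Most of them signal through the adaptor MYD88 and the IRAK kinases to TRAF6 and the kinase TAK1, which switch on the IkB kinase; this kinase marks the inhibitor IkB-alpha (NFKBIA) for destruction and so frees NF-kB to enter the nucleus. NF-kB then induces cytokines, acute phase proteins and its own inhibitor, and in the uterus both epithelial cells and resident leukocytes carry this pathway.

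All animals were crossbred gilts (young female pigs) aged 8 months, whose uterine horns were both cannulated on days 8 to 9 of the third oestrous cycle after synchronisation, and given infusions at intervals of 4 h over a day (24 h) that fell on days 11 to 12. The hormone horns (6 arrays of 6 treated gilts) received prostaglandin E2 (PGE2, 200 µg per infusion) with estradiol (E2, 33.3 µg per infusion). The placebo horns of treated gilts (5 arrays of 5 of those gilts) received the vehicle alone, 5 mL of saline with 1% ethanol, and the control gilts (8 arrays, both horns of 4 gilts) received vehicle in both horns. Endometrium, the lining of the uterus, was profiled on one-colour Agilent arrays. All gilts thus had surgery and infusion, and a placebo horn of a treated gilt shares its animal with a hormone horn. Horns were marked L or P in the labels, which do not explain the marks: every placebo horn of a treated gilt (5 of 5) had the mark L, while 5 of 6 hormone horns had the mark P and 1 had L (gilt 40, whose placebo horn was not analysed here). The design sets the infused horn against its own gilt's placebo horn and sets both kinds of horn against animals given vehicle alone.

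The share of spots well above background was 79.1% to 88.4% per array, the 75th percentile of the processed signal 597 to 983, and the number of saturated spots 0. Of the 33 genes, 29 were well above background on all 19 arrays. The exceptions were NOD2 (5 of 6 hormone horns, 5 of 5 placebo horns, 5 of 8 control horns), TLR8 (6 of 8 control horns) and MAP3K21 (7 of 8 control horns), while MAPK6 had 1 control value left out as an outlier spot. Both horns of gilt 47 stood apart from the other treated gilts, as described below. The hormone horn of gilt 36 had the lowest 75th percentile. A level here is the log2 ratio of a probe's processed signal to the 75th percentile of its array, and 0 is the brightness of that percentile. They compare horns for 1 probe and do not rank different genes. Means are over horns, with the SD over gilts.

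Against control gilts, the hormone horns had higher RNA of the adaptor MYD88 (2.14-fold), the NF-kB subunit RELA (1.53-fold), the inhibitor NFKBIA (2.19-fold), the endotoxin receptor TLR4 (2.03-fold) and the hyaluronan-binding protein TNFAIP6 (6.51-fold). These were 5 of the 33 genes at an adjusted p under 0.05 (limma, two-sided, adjusted over all probes), all higher, and 0 passed in the lower direction. That is 15.2% of the genes. Of all probes tested 11.6% passed (6.72% as higher) and of all genes with a symbol 15.2% passed (12.7% as higher), so the share of these genes that passed was near the background share. The median difference of the 33 genes was 0.47 on the log2 scale, beside 0.17 for all genes with a symbol and 0.0097 for all probes, and 28 of 33 differences were above 0, beside 65.7% of genes with a symbol. In bulk tissue a change in the number of cells that carry a transcript and a change in the transcript per cell cannot be told apart. The count depended on the animals: leaving out 1 gilt at a time gave 0 to 6 genes, with 0 without control gilt 14, 1 without control gilt 9 (RELA), 1 without control gilt 28 (MYD88) and 3 without control gilt 46 (MYD88, RELA and TNFAIP6). With the control horns averaged per gilt, 2 passed (MYD88 and RELA). Of these 5, MYD88 and NFKBIA were higher in every hormone horn than in every control horn (2 of 33 genes, 6.06%, beside 3.85% of all probes and 7.81% of genes with a symbol).

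**Figure D1:**
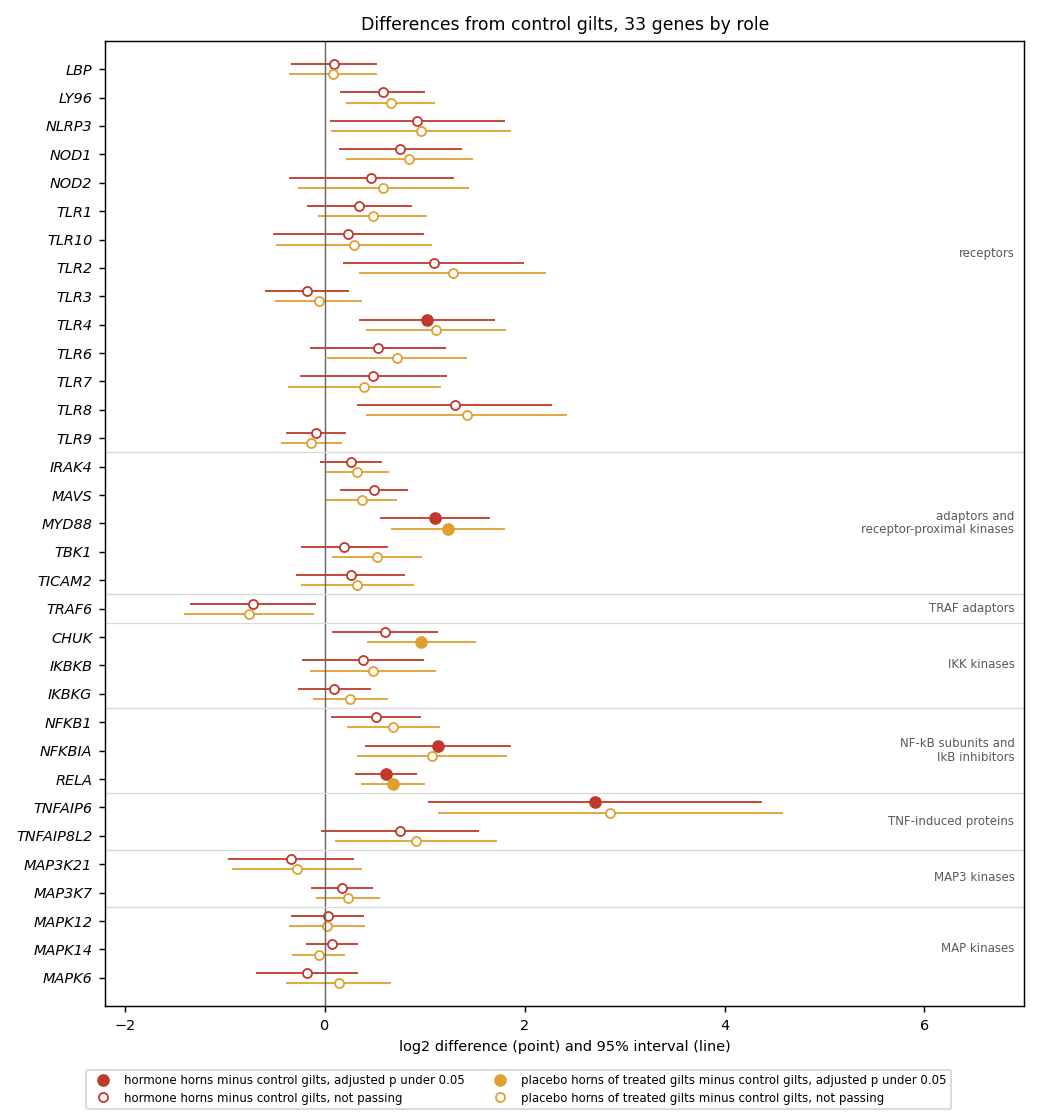
Differences on the log2 scale (x axis) for all 33 genes (y axis, grouped by role), for hormone horns minus control gilts and for placebo horns of treated gilts minus control gilts, with 95% intervals from limma. Filled points passed at an adjusted p under 0.05. Both sets of points lie mostly above 0, with TNFAIP6 farthest to the right (2.70 and 2.86) and TRAF6 farthest to the left (-0.71 and -0.75). Both sets share the control gilts.

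Among the receptors, TLR4, which senses bacterial endotoxin with its co-factor LY96, was the only 1 of 14 to pass in hormone horns. Its level was -1.58 to 0.30 (median -0.61) in hormone horns and -1.20, -0.40, -0.80, -0.57 and -0.03 in the placebo horns of gilts 36, 38, 41, 44 and 47, against -2.55 to -1.03 (median -1.55) in control horns. The groups overlapped: 4 of 6 hormone horns and 4 of 5 placebo horns lay above the highest control horn, and the hormone and placebo horns of gilt 36 were the lowest of their groups. TLR4 averaged -0.63 ± 0.69 in hormone horns (SD, n = 6 gilts) and -1.66 ± 0.31 in control gilts (n = 4 gilts), a difference of 1.02 ± 0.32 (SE, limma adjusted p = 0.0469). Of the 4 TLR4 probes, 3 passed, with differences of 1.02, 1.15 and 1.38, and the fourth had 0.76 (adjusted p = 0.0731). The call for the brightest probe was lost when any of 8 gilts was left out: the adjusted p was 0.0774 without gilt 9, 0.137 without 14, 0.067 without 28, 0.0665 without 38, 0.0878 without 40, 0.108 without 44, 0.0692 without 46 and 0.0825 without 47. LY96, the co-receptor of TLR4, had a difference of 0.58 (adjusted p = 0.0725).

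TLR2, which senses bacterial lipoproteins together with TLR1 or TLR6, had a level of -1.47 to 1.66 (median -0.82) in hormone horns and -1.28, -0.23, 0.69, -1.30 and 1.31 in the placebo horns of gilts 36, 38, 41, 44 and 47, against -1.80 to -1.21 (median -1.55) in control horns. The highest horns were both horns of gilt 47 and the placebo horn of gilt 41, while 1 of 6 hormone horns and 2 of 5 placebo horns lay within the control range. The difference of 1.09 ± 0.43 in hormone horns did not pass (adjusted p = 0.108, limma). NOD1, a cytosolic sensor of bacterial peptidoglycan, had -4.14 to -2.60 (median -2.81) in hormone horns and -2.92, -3.19, -3.77, -3.23 and -2.11 in placebo horns, against -4.39 to -3.21 (median -3.92) in control horns. Its hormone horns of gilts 38 and 41 lay within the control range, and the difference was 0.76 (adjusted p = 0.0995). TLR8, a sensor of single-stranded RNA, had the largest difference of a receptor, 1.30 (adjusted p = 0.0757), and the inflammasome sensor NLRP3 had 0.93 (adjusted p = 0.158). The RNA sensor TLR7 (0.49), the TLR2 partners TLR6 (0.53) and TLR1 (0.34), TLR10 (0.24), the peptidoglycan sensor NOD2 (0.47) and the endotoxin carrier LBP (0.09) had positive differences that did not pass. The double-stranded RNA sensor TLR3 (-0.18) and the DNA sensor TLR9 (-0.09) were the 2 receptors of 14 below 0. Every receptor's hormone horns overlapped the control horns.

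MYD88 was the adaptor with the largest difference. Its level was -3.31 to -2.18 (median -2.81) in hormone horns and -2.79, -2.67, -2.76, -3.38 and -1.54 in the placebo horns of gilts 36, 38, 41, 44 and 47, against -4.46 to -3.53 (median -3.80) in control horns. All 6 hormone horns and all 5 placebo horns were above all 8 control horns, so the separation did not rest on gilt 47 alone. MYD88 averaged -2.80 ± 0.42 in hormone horns (SD, n = 6 gilts) and -3.90 ± 0.19 in control gilts (n = 4 gilts), a difference of 1.10 ± 0.26 (SE, limma adjusted p = 0.0142). The adjusted p was 0.0549 without control gilt 9 and 0.0587 without control gilt 14, and stayed under 0.05 without any other single gilt. With gilt 47 and the hormone horn of gilt 36 left out, the difference was 0.89 (adjusted p = 0.0187). The other genes of this role were the mitochondrial antiviral adaptor MAVS (0.49, adjusted p = 0.0576), IRAK4, the kinase recruited by MYD88 (0.26), TICAM2, which bridges TLR4 to the interferon branch (0.26), and TBK1, the kinase that activates IRF3 (0.20), and none of these 4 passed. Of the 5 genes all 5 differences were above 0.

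TRAF6, the ubiquitin ligase that carries the signal from the IRAK kinases to TAK1, was the gene with the lowest difference. Its level in hormone horns was 1.31, 1.69, 1.41, 0.57, -0.20 and 0.98 in gilts 36, 38, 40, 41, 44 and 47. In the placebo horns of gilts 36, 38, 41, 44 and 47 it was 1.35, 1.87, 0.86, -0.66 and 0.93, against 1.53 to 1.92 (median 1.66) in control horns. Both horns of gilts 41, 44 and 47 were well below the control range, those of gilt 36 and the hormone horn of gilt 40 just below it, and those of gilt 38 within it. The differences of -0.71 ± 0.30 in hormone horns (adjusted p = 0.130, limma) and -0.75 ± 0.31 in placebo horns (adjusted p = 0.150) did not pass.

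Among the NF-kB proteins, RELA (the p65 subunit, which carries the transactivation domain) and NFKBIA (IkB-alpha, the inhibitor that NF-kB itself induces) both passed. RELA had levels of -2.23 to -1.70 (median -1.92) in hormone horns and -1.85, -1.79, -1.86, -2.01 and -1.79 in the placebo horns of gilts 36, 38, 41, 44 and 47, against -3.19 to -2.03 (median -2.56) in control horns. All 5 placebo horns were above every control horn, and 4 of 6 hormone horns were, with gilts 40 and 41 within the control range. RELA averaged -1.96 ± 0.21 in hormone horns (SD, n = 6 gilts) and -2.58 ± 0.34 in control gilts (n = 4 gilts), a difference of 0.61 ± 0.15 (SE, limma adjusted p = 0.0150), and both of its probes passed. The adjusted p was 0.0761 without control gilt 14 and 0.0621 without control gilt 28. Within control gilts, RELA was lower in the horn marked P in all 4 gilts, by 0.30 to 0.55 (mean -0.37 ± 0.12, SD), and the limma test of this pair did not pass after adjustment; most hormone horns carry the mark P and all placebo horns carry the mark L.

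NFKBIA had levels of 4.19 to 5.99 (median 4.85) in hormone horns and 4.19, 4.16, 6.07, 3.88 and 6.01 in the placebo horns of gilts 36, 38, 41, 44 and 47, against 3.42 to 4.00 (median 3.89) in control horns. Every hormone horn was above every control horn, gilt 47 was highest in that group, and among placebo horns gilts 41 and 47 were far above the rest and gilt 44 lay within the control range. NFKBIA averaged 4.92 ± 0.60 in hormone horns (SD, n = 6 gilts) and 3.79 ± 0.23 in control gilts (n = 4 gilts), a difference of 1.13 ± 0.35 (SE, limma adjusted p = 0.0422), and its second probe also passed (1.39, adjusted p = 0.0119). The call of the brightest probe was lost without gilt 9 (adjusted p = 0.109), 14 (0.0931), 28 (0.134), 40 (0.0622), 46 (0.0719) or 47 (0.0592). NFKB1, the p50 precursor, had -0.97 to 0.17 (median -0.70) in hormone horns and -0.86, -0.59, 0.01, -0.86 and 0.49 in placebo horns, against -1.28 to -0.84 (median -1.10) in control horns. Both horns of gilt 47 and the placebo horn of gilt 41 were the highest, the groups overlapped, and the difference of 0.51 did not pass (adjusted p = 0.129).

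The IkB kinase has the catalytic subunits CHUK (IKK-alpha) and IKBKB (IKK-beta) and the scaffold IKBKG (NEMO). In hormone horns CHUK differed by 0.60 (adjusted p = 0.128), IKBKB by 0.38 (adjusted p = 0.423) and IKBKG by 0.09 (adjusted p = 0.768), and none passed. IKBKB had -3.07 to -1.35 (median -2.75) in hormone horns and -3.01, -2.84, -1.66, -2.97 and -1.25 in placebo horns, against -3.36 to -2.27 (median -2.90) in control horns. Its high horns were those of gilts 41 and 47, and the other horns of treated gilts lay within the control range. The second IKBKB probe differed more, by 0.77 in hormone horns (adjusted p = 0.0422) and 0.99 in placebo horns (adjusted p = 0.0347), so the IKBKB probes disagreed on the call. Over all 49 probes of the 33 genes, 10 were higher in hormone horns and 8 in placebo horns, and 0 were lower in either. Of all probes tested 6.72% were higher in hormone horns (11.6% in either direction) and 2.46% in placebo horns (4.42%).

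TNFAIP6, a secreted protein that binds hyaluronan and modifies the matrix around cells in inflammation and around the ovulating oocyte, had the largest difference of the 33 genes. Its level in hormone horns was -2.30, -1.34, -3.97, -0.52, -3.04 and 0.77 in gilts 36, 38, 40, 41, 44 and 47. In the placebo horns of gilts 36, 38, 41, 44 and 47 it was -2.69, -2.46, 0.94, -3.74 and 1.24, against -5.32 to -3.36 (median -4.55) in control horns. Gilts 41 and 47 were high in both horns, 5 of 6 hormone horns were above every control horn, and gilts 40 (hormone horn) and 44 (placebo horn) lay within the control range. TNFAIP6 averaged -1.74 ± 1.73 in hormone horns (SD, n = 6 gilts) and -4.44 ± 0.77 in control gilts (n = 4 gilts), a difference of 2.70 ± 0.80 (SE, limma adjusted p = 0.0353), while its second probe had 1.58 and did not pass (adjusted p = 0.122). The call was lost without gilt 9 (adjusted p = 0.125), 14 (0.0739), 28 (0.108), 38 (0.0582) or 41 (0.0503). TNFAIP8L2, in mouse an inhibitor of Toll-like and T cell receptor signalling, had a difference of 0.75 (adjusted p = 0.206).

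None of the 5 kinases of the MAP kinase branch passed. MAP3K7 (TAK1), which activates both the IkB kinase and the MAP kinases, had -0.76 to 0.24 (median -0.35) in hormone horns and -0.54, -0.14, -0.38, -0.44 and 0.32 in placebo horns, against -0.64 to -0.35 (median -0.46) in control horns. Both horns of gilts 38 and 47 and the hormone horn of gilt 44 were above the control range, the hormone horn of gilt 36 was below it, and the difference was 0.17 (adjusted p = 0.489). MAP3K21, a mixed-lineage kinase, had a difference of -0.34 (adjusted p = 0.501). The p38 kinases MAPK14 and MAPK12 had 0.07 and 0.03, and the atypical kinase MAPK6 had -0.18, with adjusted p of 0.756, 0.938 and 0.679. MAPK6 and MAP3K21 entered by their symbols and are not textbook parts of Toll-like receptor signalling.

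**Figure D2:**
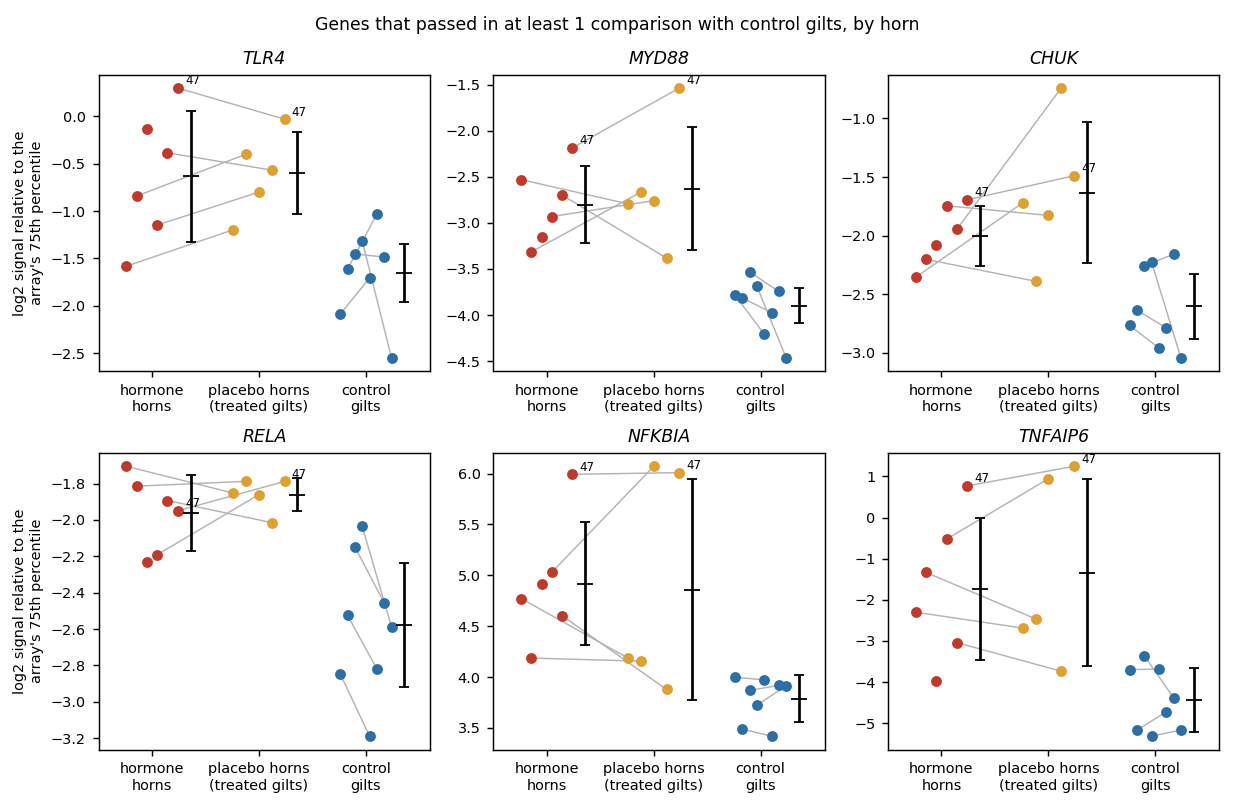
Level of each gene that passed in at least 1 comparison with control gilts (y axis, log2 of the processed signal relative to the array's 75th percentile; separate scale in each panel), 1 point per horn, in hormone horns, placebo horns of treated gilts and control horns. Lines join horns of the same gilt, and bars give the mean and SD over gilts. For MYD88 no horn of a treated gilt reaches down to the control horns, and for TNFAIP6 the treated gilts spread from -3.97 to 1.24.

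The placebo horns of treated gilts, which received no hormone, were also set against control gilts. MYD88 (2.36-fold), RELA (1.61-fold) and CHUK (1.95-fold) were higher, 3 of 33 genes or 9.09%, and 0 were lower. Of all probes 4.42% passed (2.46% as higher) and of all genes with a symbol 4.49% passed (3.66% as higher) in this comparison. The median difference of the 33 genes was 0.48, beside 0.07 for all genes with a symbol, and 28 of 33 were above 0, beside 58.3% of genes with a symbol. MYD88 differed by 1.24 ± 0.27 (SE, limma adjusted p = 0.0257) and RELA by 0.69 ± 0.15 (adjusted p = 0.0260). CHUK had -1.72, -2.39, -1.83, -0.74 and -1.49 in the placebo horns of gilts 36, 38, 41, 44 and 47, against -3.04 to -2.16 (median -2.70) in control horns, with -2.35 to -1.69 (median -2.01) in hormone horns. Its placebo horn of gilt 38 lay within the control range and that of gilt 44 was the highest of all horns, for a difference of 0.96 ± 0.26 (adjusted p = 0.0436), and its second probe had 0.68 (adjusted p = 0.0745).

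Placebo horns lay above every control horn for 4 of the 33 genes (MYD88, RELA, TBK1 and TLR1), or 12.1%, beside 3.05% of all probes and 5.22% of genes with a symbol. By their brightest probes TNFAIP6 (2.86, adjusted p = 0.0531), TLR4 (1.11, adjusted p = 0.0610), NFKBIA (1.07, adjusted p = 0.0848), TLR8 (1.42, adjusted p = 0.0878) and TLR2 (1.28, adjusted p = 0.0960) did not pass. The TLR4 and NFKBIA probes disagreed on the call. Other TLR4 probes passed as higher (1.398 and 1.595, limma adjusted p = 0.0326 and 0.0312), and the remaining TLR4 probe did not (0.78, adjusted p = 0.103). The second NFKBIA probe passed as higher (1.272, adjusted p = 0.0393). This comparison and that of the hormone horns share the control gilts, so a gene high in both is not an independent repeat. The count of 3 became 0 without control gilt 9, 14 or 28, 1 without gilt 38 (CHUK) or 47 (MYD88), and 5 without gilt 36. It was 0 with the control horns averaged per gilt, with only the groups compared or with the horn mark as a term, and 7 without the gilt as a block. The 3 genes also lost their calls singly. For MYD88 the adjusted p was 0.0851 without gilt 9, 0.102 without 14, 0.0953 without 28 and 0.0523 without 38. For RELA it was 0.0547 without gilt 9, 0.109 without 14, 0.102 without 28, 0.0619 without 38 and 0.0588 without 47, and for CHUK it was 0.0506 to 0.152 without gilt 9, 14, 28, 36, 40, 41, 44 or 47.

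In treated gilts, hormone horns minus placebo horns (5 gilts with both, and the hormone horn of gilt 40 in the fit), 0 of the 33 genes passed (limma), beside 1 of 39094 probes, or 0.00256%. At an unadjusted p under 0.05 there was 1 gene of 33, beside 9.92% of probes, and a fit with the gilt as a fixed block also gave 0. The median difference was -0.09, beside 0.07 for all genes with a symbol, and 8 of 33 genes were above 0, beside 65.9% of genes with a symbol. The smallest p was for TBK1. Its levels were -0.55, 0.07, 0.09, -0.65 and -0.16 in the hormone horns of gilts 36, 38, 41, 44 and 47 and 0.27, -0.16, -0.29, 0.39 and 0.20 in their placebo horns. The hormone horn was lower in gilts 36, 44 and 47 and higher in gilts 38 and 41, for a difference of -0.33 ± 0.15 (SE, unadjusted p = 0.0378 and adjusted p = 0.478 in limma).

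The next smallest p were for CHUK (-0.36, 95% interval -0.73 to 0.01), MAPK6 (-0.32, -0.66 to 0.03), MAPK14 (0.13, -0.05 to 0.31) and IKBKG (-0.16, -0.42 to 0.10). MAPK6 was the only gene of the 33 whose 5 treated gilts all had the lower level in the hormone horn: it had 1.53, 2.68, 1.94, 2.10 and 1.60 in the hormone horns of gilts 36, 38, 41, 44 and 47 and 2.29, 2.94, 2.19, 2.38 and 1.66 in their placebo horns. The hormone horns overlapped the placebo horns. For IKBKG the hormone horns had -1.30 to -0.53 (median -0.97) and the placebo horns -0.38, -1.33, -0.77, -1.07 and -0.37. For MAPK14 they had -0.63 to -0.09 (median -0.43) and -0.52, -0.38, -0.71, -0.54 and -0.36. All 95% intervals of the 33 horn differences lay between -1.33 and 1.02, the widest being that of TNFAIP6. For the genes that passed against control gilts the horn differences were -0.14 ± 0.19 for MYD88, -0.07 ± 0.10 for RELA, 0.06 ± 0.24 for NFKBIA, -0.09 ± 0.23 for TLR4, -0.15 ± 0.56 for TNFAIP6 and -0.36 ± 0.18 for CHUK (SE). A p that misses the threshold does not show that the horns were alike, and these intervals give the differences that the 5 pairs leave possible.

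**Figure D3:**
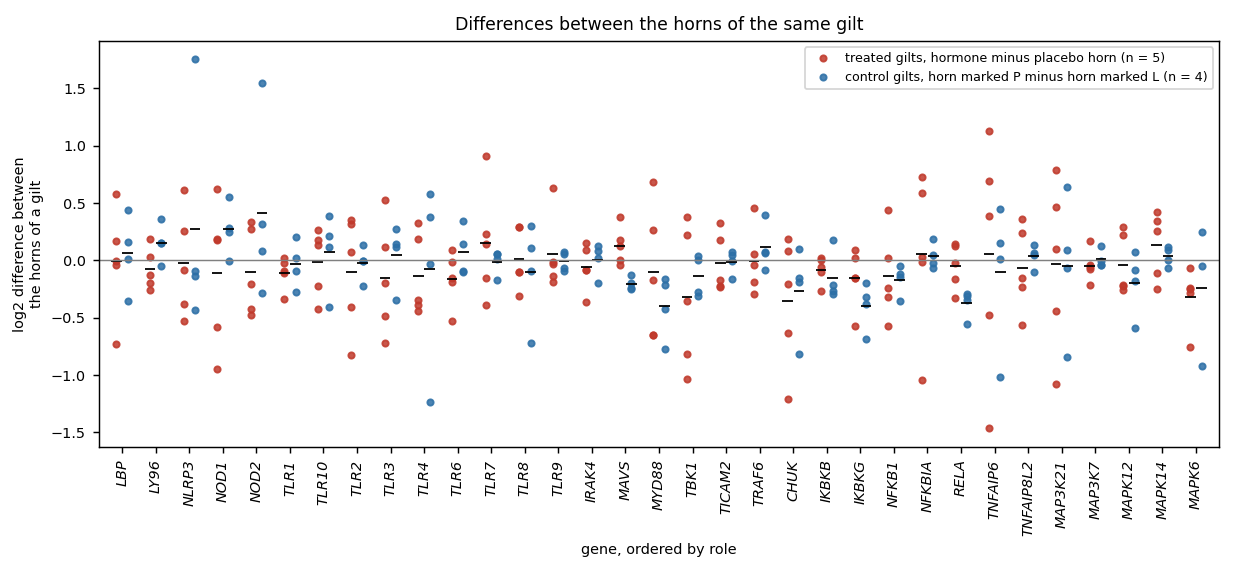
Horn difference within each gilt on the log2 scale (y axis) for all 33 genes (x axis, by role), as hormone horn minus placebo horn in 5 treated gilts and as horn marked P minus horn marked L in 4 control gilts (3 for MAPK6), 1 point per gilt, with dashes at the means. The points of treated gilts scatter to both sides of 0 for all genes but MAPK6, whose 5 points lie below 0, and no gene passed.

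Within control gilts, horns marked P minus horns marked L, 0 of 33 genes passed, beside 0% of all probes, and 2 had an unadjusted p under 0.05 (2.39% of all probes did). The horn difference of treated gilts minus that of control gilts passed for 0 of 33 genes, beside 0% of all probes, and 0 of the 33 had an unadjusted p under 0.05 (3.24% of all probes did). In all 4 control gilts the horn marked P had the lower level for 5 of the 33 genes, MYD88 (by 0.16 to 0.78, mean -0.39 ± 0.28, SD), RELA, IKBKG, MAVS and NFKB1. The share of all genes that did so was not counted, so this count has no background beside it. With the horn mark as a term MYD88 did not pass in placebo horns (1.08, limma adjusted p = 0.101), while in hormone horns it did (1.19, adjusted p = 0.0134). RELA also had the lower level in control horns marked P. Its horn difference of treated gilts minus that of control gilts was 0.30 ± 0.16 (SE, limma adjusted p = 0.999).

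The range of gilt means was set beside the gap between the horns of a gilt. A range over several gilts tends to exceed a gap between the horns of 1 gilt. The ranges are over 5 treated and 4 control gilts. The same values were not computed over all genes, so they do not mark a trait of these 33. Over the 5 treated gilts with both horns, the range of gilt means had a median of 1.28 log2 units over the 33 genes, and the median horn gap within a gilt was 0.23. The range exceeded the largest horn gap for 25 of 33 genes. In control gilts the range was 0.47 and the horn gap 0.16, and the range exceeded the largest gap for 19 of 32 genes. The exceptions in treated gilts included RELA, with a range of 0.25, and TBK1, with 0.16. Gilt 47 had the highest level for 21 of 33 genes among hormone horns and 22 of 33 among placebo horns, and gilt 36 the lowest for 13 of 33 in each.

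Taking the median of the 33 genes above the control mean in each horn, the hormone horn of gilt 47 was at 1.17 and its placebo horn at 1.53. The other hormone horns were at 0.10 to 0.50 and the other placebo horns at 0.18 to 0.50. Without gilt 47, 4 genes passed in hormone horns (MAVS, MYD88, RELA and TNFAIP6), with a median of 0.21 over the 33 genes beside 0.17 for genes with a symbol, and 1 passed in placebo horns (MYD88). With gilt 47 and the hormone horn of gilt 36 left out, 3 genes passed in hormone horns (LY96, MYD88 and RELA) and 1 in placebo horns (MYD88), and these settings were chosen after the data were seen. The shares of all genes that passed in these fits are not given here, so these counts have no background beside them. The median over the 33 genes in hormone horns was thus 0.47 with gilt 47 and 0.21 without it, while MYD88 and RELA passed in hormone horns in both fits.

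**Figure D4:**
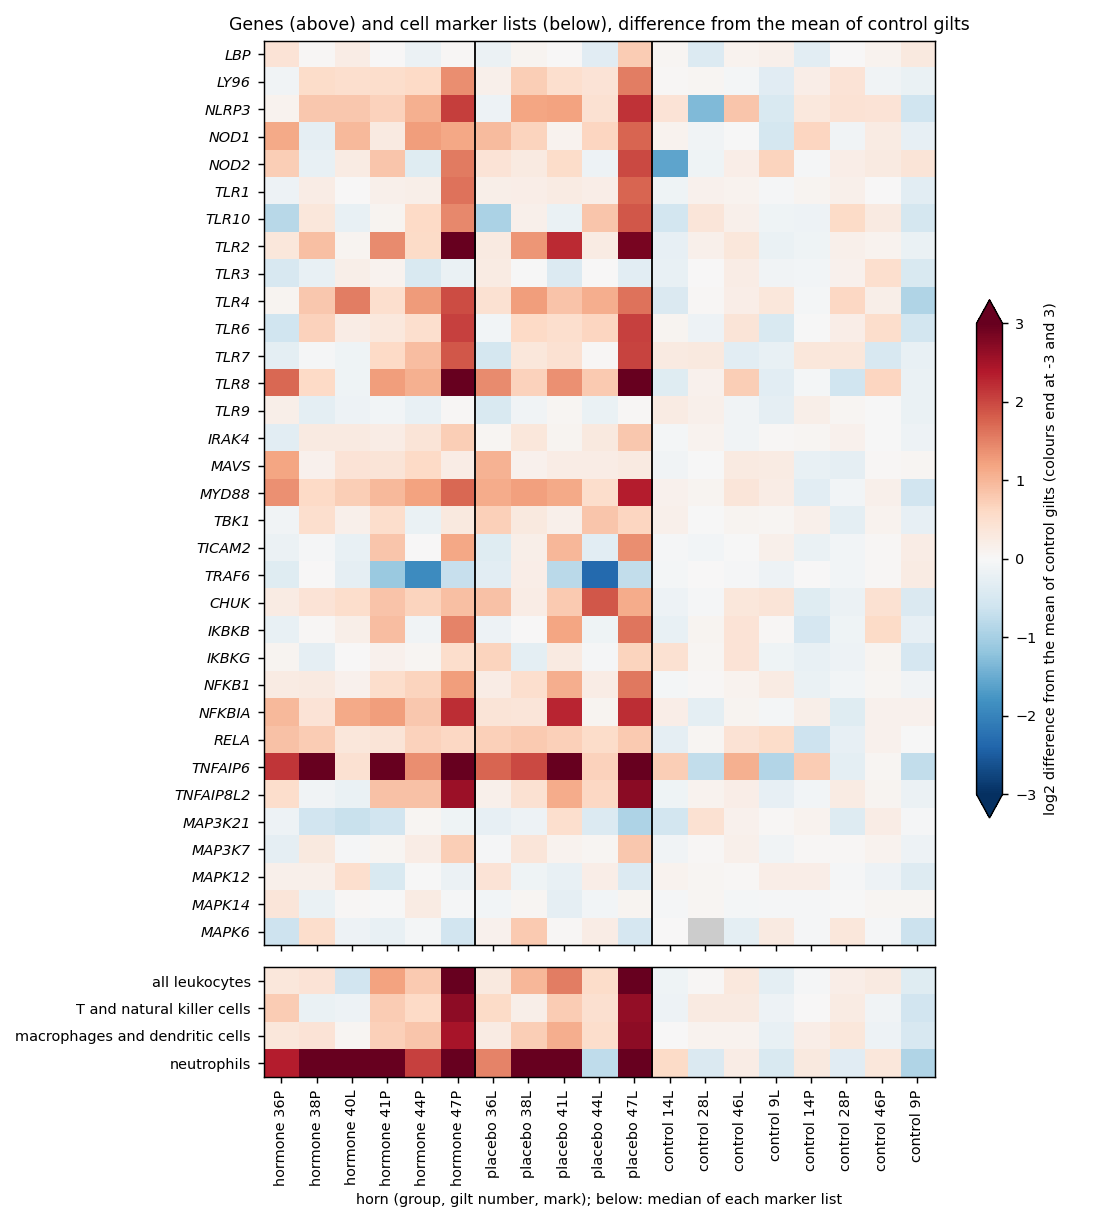
Level of each of the 33 genes (rows, by role) in each of the 19 horns (columns, by group) relative to the mean of the control horns, on the log2 scale as a colour that ends at -3 and 3, with the median of 4 leukocyte marker lists below and a missing value in grey. The columns of gilt 47 are the darkest red in both the hormone and the placebo group, and TRAF6 runs the other way in gilts 41, 44 and 47.

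Leukocytes carry many of these receptors, and leukocyte markers differed between gilts. Between hormone and placebo horns 0 markers of any list passed. Of 15 macrophage and dendritic cell markers 12 were measured, with a summed level (linear signal relative to each array's 75th percentile) of 258 in the hormone horn of gilt 47 and 32.2 to 61.1 in the other hormone horns. It was 294 in the placebo horn of gilt 47 and 36.7 to 67.0 in the other placebo horns, against 21.4 to 37.2 in control horns. Of these 12, 3 passed as higher in hormone horns and 1 in placebo horns. Of 10 neutrophil markers 5 were measured, with sums of 1.15 to 67.7 in hormone horns and 0.210 to 79.5 in placebo horns, against 0.383 to 0.813 in control horns, and 3 passed in hormone horns and 1 in placebo horns. The 2 general leukocyte markers measured of 6, CD48 and ITGB2, summed to 1.44 to 18.5 in hormone horns and 2.64 to 22.5 in placebo horns, against 1.66 to 2.70 in control horns. The neutrophil sums did not follow these sums in every horn. In the hormone horn of gilt 40 the neutrophil sum was 20.7 and the general leukocyte sum 1.44, below every control horn. In that of gilt 38 they were 61.6 and 2.83, while gilt 47 was highest in both. Gilt 47 held the highest sums of general leukocyte and macrophage markers in both groups. Their part in the differences of the 33 genes was not tested.

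Of 12 T and natural killer cell markers 9 were measured, and 1 passed as lower in hormone horns. Their sums were 18.5 in the hormone horn of gilt 47 and 17.4 in its placebo horn, against 6.41 to 9.21 in control horns. The other hormone horns were at 4.84 to 6.13, below every control horn. The other placebo horns, from 5.90 up, lay below or within the control range. A sum weighs the brightest markers most, and the median over these 9 markers gave another picture. The median log2 difference from control gilts was 0.67 in hormone horns and 0.81 in placebo horns. By horn, the median above control was 0.75, 0.75 and 0.61 in the hormone horns of gilts 36, 41 and 44. It was -0.20 and -0.15 in those of gilts 38 and 40. Of 8 B cell markers 3 were measured, with sums of 0.0979 to 0.140 in control horns. Gilt 47 was again highest, at 0.756 in its hormone horn and 0.895 in its placebo horn. The other hormone horns were at 0.0883 to 0.207 and the other placebo horns at 0.0977 to 0.1245. The 4 of 8 epithelial markers measured summed to 86.3 to 168 in hormone horns and 99.7 to 151 in placebo horns, against 78.9 to 121 in control horns (3 passed as higher in each). Of the 5 of 8 endothelial markers measured 4 passed as higher in hormone horns and 0 in placebo horns. Of the 4 of 9 stromal markers measured 2 passed as higher in hormone horns and 0 in placebo horns. The background for the counts of all marker lists is 12.7% of genes with a symbol as higher in hormone horns and 3.66% in placebo horns. The 4 of 6 uterine markers measured (ESR1, HOXA10, MSX1 and PGR) were above background on all arrays, and 0 of them passed. Of 5 smooth muscle markers, 3 were measured and 0 passed. Their sums were 60.8 to 125.2 in hormone horns and 30.4 to 59.9, all lower, in placebo horns. In control horns they were 29.5 to 80.6, apart from the horn of gilt 9 marked P, at 209.6. That horn also had the lowest epithelial sum (78.9) and the lowest level of MYD88, TLR4 and CHUK. It was not the lowest for RELA, NFKBIA or TNFAIP6. The part of these markers in the differences was not tested. Of 4 red blood cell markers 0 were measured, and no marker measured was below background on every array.

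Other components of the same pathways, from a list of 74 genes outside the 33, were measured for 26. In hormone horns 2 were higher and 1 lower than in control gilts, beside the background of 15.2% of genes with a symbol called in either direction, so the share of these 26 that passed was below the background. Their median difference was 0.33, beside 0.17 for all genes with a symbol. In placebo horns 0 passed (background 4.49%), with a median of 0.23, beside 0.07. CD14, the surface protein that hands endotoxin to TLR4, had -0.10 to 2.17 (median 1.13) in hormone horns and a median of 1.08 in placebo horns, against -0.71 to 0.28 (median -0.41) in control horns, a difference of 1.42 in hormone horns (limma adjusted p = 0.0328). CD14 is also 1 of the macrophage markers above. TNIP1, a partner of TNFAIP3 that damps NF-kB, differed by 0.92 (adjusted p = 0.0353), with all 6 hormone horns (-1.02 to 0.09) above all control horns (-2.0 to -1.28). IL18R1, a receptor chain for interleukin 18 that signals through MYD88, differed by -1.28 (adjusted p = 0.0244), at -3.97 to -3.14 in hormone horns, against -3.55 to -1.52 in control horns. Only IL18R1 passed without gilt 9, 14, 38 or 41, CD14 did not pass without gilt 44, and none of the 3 passed without control gilt 28 or 46.

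Textbook NF-kB target genes outside the 33 were measured for 33 of 43. In hormone horns 4 were higher (SAA3, CFB, LCN2 and IL15) and 1 lower (NOS2) than in control gilts, and 31 of 33 were above 0, with a median difference of 0.83, beside the background of 15.2% called and a median of 0.17 over genes with a symbol. In placebo horns 1 was higher (SAA3), with a median of 1.11, and between the horns 0 passed, with a median of -0.19. SAA3, an acute phase protein, had 1.37 to 8.59 (median 4.20) in hormone horns and a median of 2.52 in placebo horns, against -1.77 to 0.31 (median -1.06) in control horns, with differences of 5.33 in hormone horns (adjusted p = 0.00416) and 4.31 in placebo horns (adjusted p = 0.0312). The complement protease CFB differed by 2.49 in hormone horns (adjusted p = 0.0194), the iron-binding lipocalin LCN2 by 2.39 (adjusted p = 0.0355), the lymphocyte cytokine IL15 by 0.60 (adjusted p = 0.04999) and NOS2, the inducible nitric oxide synthase, by -0.59 (adjusted p = 0.0343). The interleukins and TNF named next were chosen after their values were seen. In hormone horns CXCL8 differed by 1.52, IL6 by 1.03, IL1B by 1.89 and TNF by 0.08, and none passed (adjusted p of 0.409, 0.430, 0.293 and 0.776). TNF had a narrow spread (0.95 to 1.86 in hormone horns, against 0.89 to 1.35 in control horns). IL1A had the opposite sign and lay close to the threshold, with a difference of -1.37 (adjusted p = 0.0501) and 5 of 6 hormone horns below every control horn. IL1B was at 3.14 in the highest hormone horn and -4.10 in the lowest, with 2 of 6 above every control horn. Without gilt 47 the median of these 33 targets was 0.45 in hormone horns and 0.74 in placebo horns. In hormone horns only SAA3 passed without control gilt 9, 14 or 28, and only SAA3 and CFB did without treated gilt 40 or 44.

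Of 10 host molecules described as Toll-like receptor ligands, 7 were measured. S100A8 and S100A9, the calgranulins of neutrophils described as ligands of TLR4, were higher in hormone horns by 6.41 (adjusted p = 0.00361) and 5.65 (adjusted p = 0.00449), with every hormone horn above every control horn. In placebo horns S100A8 differed by 4.34 (adjusted p = 0.0457) and S100A9 by 3.38 (adjusted p = 0.0772). Both are also neutrophil markers above. The matrix proteoglycan VCAN was higher by 0.99 in hormone horns (adjusted p = 0.0296), and HMGB1, HSPD1, HSP90B1 and TNC did not pass in either comparison (HMGB1 and HSP90B1 are also on the list of other components). VCAN did not pass without gilt 9, 14, 28, 38 or 46, while S100A8 and S100A9 passed in hormone horns without any single gilt. Of these 7, 3 passed as higher in hormone horns (background 12.7% of genes with a symbol), 1 in placebo horns (background 3.66%) and 0 between the horns.

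The arrays were scanned on 3 days, each holding horns of all 3 kinds, and the 6 genes that passed had differences above 0 against the control horns of the same day on all 3 days. These genes were picked as higher on the same arrays, so these signs are no separate support. The control horns were those of gilt 9 alone on day 1, gilts 14 and 28 on day 2 and gilt 46 alone on day 3. With scan day as a term CHUK no longer passed in placebo horns (0.92, limma adjusted p = 0.0534), while MYD88 and RELA still did. For hormone horns, with 2 horns a day, the differences on days 1, 2 and 3 were 1.46, 0.90 and 0.89 for MYD88, 0.51, 0.63 and 0.42 for RELA, 0.87, 1.26 and 1.20 for NFKBIA, 0.95, 0.97 and 1.20 for TLR4, and 2.57, 2.07 and 3.59 for TNFAIP6. For placebo horns, with 1 horn on day 2 and 2 on each other day, they were 0.99, 1.19 and 1.54 for MYD88, 0.38, 0.98 and 0.51 for RELA, and 1.40, 0.96 and 0.27 for CHUK. The horns of each gilt shared a slide, and only 1 of the 9 slides held a treated and a control gilt (gilts 36 and 9). A gilt and its slide can therefore not be told apart for the other gilts. With slide as a term the comparisons with control gilts rest on gilts 36 and 9, 1 treated and 1 control animal. That fit has no replication between animals for these comparisons, so which genes passed in it is not given.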

How the data were processed

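Per the labels' protocols, TRIzol RNA was amplified, labelled with Cy3 and hybridised to one-colour arrays. Per the file headers, the deposited intensity values come from Agilent Feature Extraction 10.7.3.1 (the submitters' processing notes name 9.1). The processed intensity in the deposited files is background-subtracted within each array and not scaled between arrays. Per array, the authors' deposited value table is on a log2 scale (medians 7.72 to 7.83; r 0.992 to 0.998 with the log2 scanner values). It was an alternative only: its normalization and centring are not given in the sources used here. Precision is limited by the number of arrays.

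Control spots and outlier-flagged values were left out, spots of a probe averaged, and values taken as the log2 ratio to the 75th percentile of each array. Tests ran on 39095 of 43603 probes, those well above background on 4 arrays or more; 6768 probes have a symbol, through RefSeq accessions and the Sscrofa11.1 table. No coordinates were used. limma 3.58.1 (R 4.3.3, statmod 1.5.0) fitted the 4 groups with the gilt as random block (correlation 0.536) and eBayes with trend; control gilts are the mean of their L and P horns. All p are two-sided and adjusted over all probes (Benjamini-Hochberg), with a threshold of 0.05. The steps were tested on simulated data. Deviations of both horns of a gilt, the same animal per the labels, correlated at 0.336 to 0.795 (treated) and 0.403 to 0.628 (control), those of different gilts at no more than 0.143 and 0.0185.

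Per gene, values by sample are given for genes that passed, the smallest p per role against control gilts, core genes (TLR2, TLR4, MYD88, TRAF6, NFKB1, RELA, NFKBIA, IKBKB, NOD1) and the 5 smallest p between horns; from the other lists, genes that passed (the cytokines CXCL8, IL6, IL1B and TNF were chosen after their values were seen). Alternatives were the scaling, the background correction (on median signals, since mean signals were not used here), the filter, the block, the samples fitted, scan day, slide, horn mark, the probe rule and each gilt left out. The genes and lists were chosen with earlier results of these data known.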

Additional observations from a re-analysis of the deposited data

Results flagged for a closer look

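In 1 of 63 tests of a group for a sample far from the rest, a horn stood apart: NFKBIA in the control horn marked P of gilt 28 was at 3.42, where the other 3 control horns marked P had 3.91 to 3.97. About 5% of such groups are flagged by chance. The horn of gilt 28 marked L was also low, at 3.49. Without gilt 28 the NFKBIA difference of hormone horns from control gilts was 1.02 (limma adjusted p = 0.134), beside 1.13 with it.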

How the results depend on the processing

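For hormone horns against control gilts, 5 genes passed, and 3 did so after quantile normalization, 2 with the control horns averaged per gilt, and 3 with gilt 47 and the hormone horn of gilt 36 left out (added after seeing the data). Leaving out 1 gilt gave 0 to 6. Without the replicate block 5 passed. For placebo horns, 3 passed, and 7 did so without the replicate block, 0 with control horns averaged per gilt, 0 with only the groups compared, 0 with the horn mark as a term, and 1 with gilt 47 and the hormone horn of gilt 36 left out. In placebo horns leaving out 1 gilt gave 0 to 5. The cause of these shifts was not tested, except that fewer gilts or averaged horns leave fewer values in the fit. With slide as a term, both comparisons rest on the slide of gilts 9 and 36, 1 control and 1 treated animal, so its counts are not given. Shares over all genes under these alternatives are not given here. Comparisons between horns gave 0 under every alternative, with the gilt as a fixed replicate block too. No named gene that passed changed direction. Genes that had not passed did: with slide as a term IKBKB (-0.12 in hormone and -0.043 in placebo horns, beside 0.38 and 0.48 without it), MAP3K7 (-0.048 and -0.0028) and MAPK14 (0.065 in placebo horns), IKBKG in hormone horns with 1 gilt left out (-0.0095 without gilt 9, to 0.17), and MAPK6 in hormone horns with gilt 47 and the hormone horn of gilt 36 left out (0.010) and in placebo horns with 1 gilt left out (-0.0041 without gilt 38, to 0.29); the cause was not tested. Over 23 alternatives, slide as a term among them, the call in hormone horns was lost under 2 for MYD88, 3 for RELA, 10 for NFKBIA, 14 for TLR4 and 9 for TNFAIP6, and in placebo horns under 7 for MYD88, 10 for RELA and 15 for CHUK. Comparisons with control gilts set 4 animals against 5 or 6, and the fit gives every probe the same correlation within a gilt, so their p can be too small for genes that vary much between gilts.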
